A study of Mus musculus with 6 samples.

Results

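Interferon-stimulated genes are switched on when a cell senses interferon, the family of secreted proteins that warns tissue of infection. Here 37 mouse genes of this kind were followed in bone marrow stem and progenitor cells. They were taken as every probe whose gene name on the array equals one of the 37 symbols, which gave 47 probes, and for a gene with several probes the one with the highest mean signal was used. The array carries 34650 gene names, of which 19611 were bright enough to be tested, all 37 among them. On every array, the probe used for each of the 37 genes was called well above background by the scanner software. The rule that finds the 47 probes uses gene names and no measured value, while the choice among several probes of a gene uses their mean signal. The 37 genes themselves were chosen with earlier results of these data known.

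The measured groups were cells lacking Spred1 (KO, 3 arrays) and cells with an intact gene (WT, 3 arrays), both labelled as C57BL/6. Spred1 encodes an inhibitor of Ras and ERK signalling, and the labels give neither the deleted part of the gene nor whether a Cre driver was used, and no age. The sorting phenotype, CD48-KSL, requires c-Kit and Sca-1 on the surface and no CD48 or lineage markers, which enriches blood stem cells and early progenitors. RNA of the sorted cells was labelled with Cy3 by a low-input kit and hybridised to 1-colour Agilent arrays. The labels number the samples 1 to 3 in each genotype without saying whether they came from separate animals, so the spread behind the p-values may be technical.

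Type I interferons (alpha and beta) bind the receptor made of Ifnar1 and Ifnar2 and send a complex that holds Stat2 and Irf9 to a DNA element called ISRE. Interferon gamma binds Ifngr1 and Ifngr2 and acts through an element called GAS. Blood stem cells are known to respond to both kinds, and Sca-1, the product of Ly6a and part of the sorting gate, is itself raised by interferon in mice. The 37 genes were divided into 28 type I targets, the antiviral core of the response, and 9 targets known for strong induction by interferon gamma (Irf1, Cxcl10, Tap1, Ifi47, Igtp, Irgm1, Irgm2, Gbp2 and Gbp3). Many genes answer to both kinds of interferon, so the division is one of emphasis.

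The promoters of many of these genes carry the elements named above. Each promoter was searched over the 250 bases upstream of the start site in the RefSeq table (GRCm38.p6), which held 29 of the 37 genes. The letters searched were GAAA, any 2 bases and GAAA again, on either strand, for the core of the ISRE. For GAS they were TTC, any 3 bases and GAA, which reads the same on both strands. The elements may overlap. An ISRE core lay upstream of 13 of the 29 genes (44.8%), and of 3.46% of all 27025 genes of the table. By class it lay upstream of 7 of 20 type I genes (35%) and 6 of 9 gamma-type genes (66.7%). GAS letters lay upstream of 7 of the 29 (24.1%), against 8.13% of all genes, with 4 of 20 type I genes (20%) and 3 of 9 gamma-type genes (33.3%). A match describes letters in a window and shows no binding, and a promoter without one says only that these letters are absent from that window.

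The windows below are 60 bases long, 5′ to 3′ on the strand of the gene, with the matched letters in capitals. Isg15 (chr4:156200850-156200909, minus strand) and Ifit1 (chr19:34640779-34640838, plus strand) are shown as type I promoters with several cores, and Oas3 (chr5:120777700-120777759, minus strand) because its difference between genotypes was the most negative of the 37. Irf1 (chr11:53769898-53769957, plus strand) is shown for GAS without an ISRE core. Igtp (chr11:58199485-58199544, plus strand) and Irgm2 (chr11:58214876-58214935, plus strand) carry both elements close together. Gbp2 (chr3:142620579-142620638, plus strand) and Cxcl10 (chr5:92349068-92349127, minus strand) are gamma-type genes with an ISRE core.
Isg15: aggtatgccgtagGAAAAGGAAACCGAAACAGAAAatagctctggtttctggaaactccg
Ifit1: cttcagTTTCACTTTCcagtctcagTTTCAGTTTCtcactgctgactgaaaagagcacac
Oas3: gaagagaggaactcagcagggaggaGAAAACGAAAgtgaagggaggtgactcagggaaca
Irf1: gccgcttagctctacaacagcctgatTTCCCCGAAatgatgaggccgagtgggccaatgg
Igtp: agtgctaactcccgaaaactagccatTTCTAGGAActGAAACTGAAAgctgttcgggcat
Irgm2: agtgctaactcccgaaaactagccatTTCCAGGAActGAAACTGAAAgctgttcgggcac
Gbp2: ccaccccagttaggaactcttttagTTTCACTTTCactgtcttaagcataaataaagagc
Cxcl10: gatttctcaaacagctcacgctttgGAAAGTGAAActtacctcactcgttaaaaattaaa
The Isg15 stretch holds 3 overlapping cores in 1 run of capitals, and that of Ifit1 holds 2 separate ones. The windows of Igtp and Irgm2, neighbouring GTPase genes of one family, differ at 2 of 60 bases. Whether probes of such close relatives also bind each other's transcripts was not tested.

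Values below are log2 intensities centred on each array's 75th percentile, so 0 is a signal equal to that percentile and 1 is a 2-fold step, and levels of different genes are not compared because probes differ in brightness. The 75th percentile signal lay between 345.5 and 417.0 on the 6 arrays, no spot was saturated, and the number of arrays limits the precision. Arrays correlated with each other at 0.988 to 0.995 (Pearson r over the genes tested). Of 3 Spred1 probes, one had a KO minus WT difference of -0.14 on the log2 scale (limma adjusted p = 0.59 over 27809 probes), one had -0.98 and did not pass (adjusted p = 0.0543), and one for transcript variant 2 rose in KO (2.44, adjusted p = 0.0133). As the deleted part is not given, none of them checks the labels. The arrays lay on 2 slides, with KO replicate 3 and WT replicate 3 on slide 2 and the other 4 arrays on slide 1, so slide and replicate number 3 cannot be told apart. WT replicate 1 stood apart in markers of other cells. The median deviation of 10 neutrophil markers from their WT means was -1.61 on WT replicate 1, and between 0.13 and 0.89 on the other 5 arrays.

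None of the 37 interferon-stimulated genes passed the test for a difference between KO and WT cells. In limma's fit over all genes, 0 of 37 passed an adjusted p of 0.05, where 0.0204% of all genes did (4 of 19611), 0.0102% higher and 0.0102% lower in KO. At an unadjusted p of 0.05, 0 of 37 passed in either direction, against 12.2% of all genes, 7.06% higher and 5.12% lower in KO. The 3 arrays of KO lay wholly below those of WT for 2 of the 37 genes (10% of all genes) and wholly above for 0 (9.53% of all genes), where 19.6% of all genes separated either way. The median difference, KO minus WT, was -0.029 over the type I genes and -0.053 over the gamma-type genes, beside -0.006 over all genes tested. Differences were above 0 for 12 of 28 type I genes and 3 of 9 gamma-type genes, against 48.8% of all genes. The sign of both medians rested on single arrays. The type I median was -0.132 without WT replicate 1, 0.035 without KO replicate 1 and 0.074 without WT replicate 3, and the gamma-type median was -0.139 without WT replicate 2 and 0.014 without WT replicate 3.

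The intervals say how large a change these arrays could have missed. The 95% interval of the difference lay wholly within 1.5-fold either way for 30 of the 37 genes (72.5% of all genes) and within 2-fold for all 37 (93% of all genes). The 7 genes with wider intervals than 1.5-fold were Oas2, Oas3, Ifit3, Irf7, Mx1, Rsad2 and Cxcl10. The 37 differences ran between -0.38 for Oas3 and 0.32 for Ifit3, with a median size of 0.068, against 0.129 over all genes. Fewer responding cells and less RNA per cell cannot be told apart in such bulk samples.

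**Figure D1:**
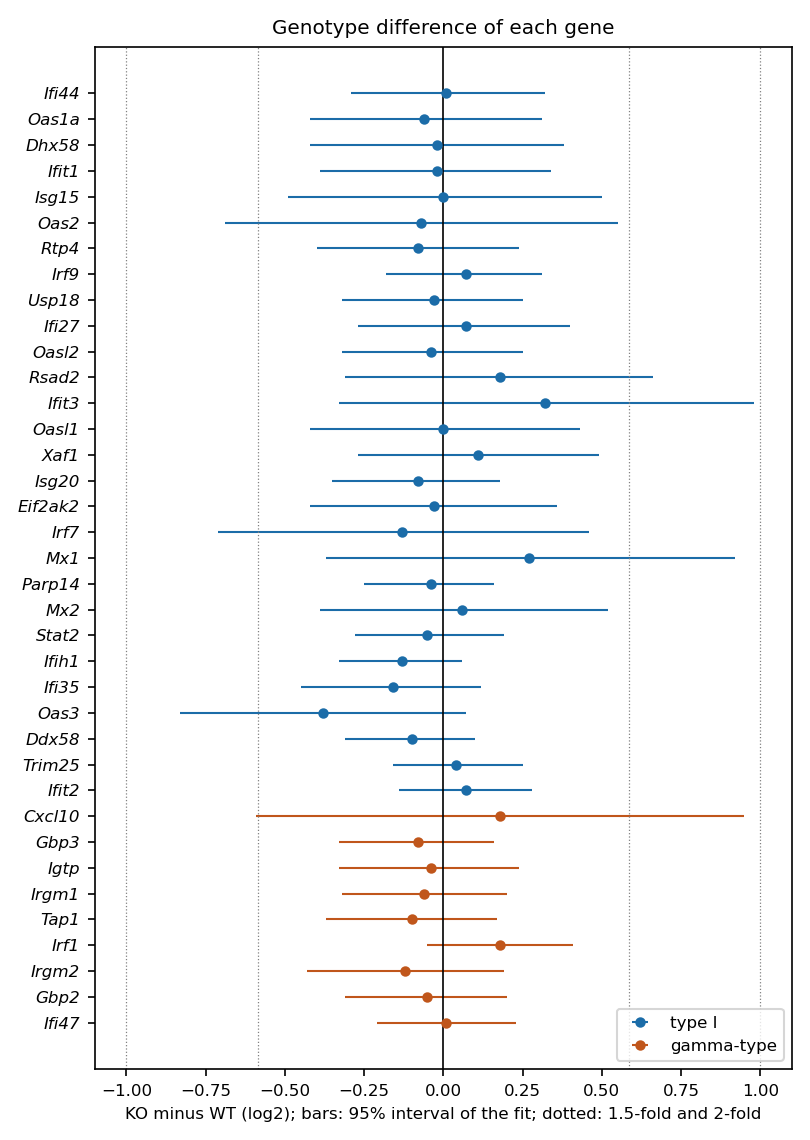
Difference in level between KO and WT cells for each of the 37 genes, in log2 units, with the 95% interval of limma's fit as bars (3 arrays per genotype). Type I genes are above and gamma-type genes below, and dotted lines mark 1.5-fold and 2-fold. Every interval crosses 0 and ends within 2-fold, and those of Ifit3, Cxcl10, Mx1 and Oas3 reach farthest from 0.

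Among the factors that carry the signal, Irf1, a transcription factor gene induced quickly through its GAS element, had levels of 5.52, 5.69 and 5.78 in KO cells, against 5.49, 5.54 and 5.44 in WT cells. KO replicates 2 and 3 lay above all WT arrays and KO replicate 1 among them, and the difference of 0.18 ± 0.10 (SE) did not pass (limma adjusted p = 0.476, exact permutation p = 0.2). Without KO replicate 1 it was 0.25, with an unadjusted p of 0.0428 in limma's fit and an adjusted p of 0.592. Irf9, a DNA-binding part of the complex that reads the ISRE, had 4.12, 4.12 and 4.28 in KO cells and 3.97, 4.12 and 4.23 in WT cells, which overlap. Stat2 differed by -0.05 ± 0.10. Irf7, the factor that amplifies type I interferon production, differed by -0.13 ± 0.25, with KO arrays spread over 0.81 and WT arrays over 0.56.

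Of the RNA sensors and their partners, 1 of 4 did not overlap between genotypes (19.6% of all genes). Ifih1 (probe at chr2:62435507-62435566 of mm9, minus strand), which encodes the sensor MDA5 for long double-stranded RNA, was that gene, at 1.82, 1.93 and 1.96 in KO cells and at 1.98, 2.06 and 2.07 in WT cells. All 3 KO arrays lay below all 3 WT arrays, and the difference of -0.13 ± 0.08 did not pass (limma adjusted p = 0.516, exact permutation p = 0.1). A second Ifih1 probe did not separate the genotypes (-0.06 ± 0.14). Ddx58, the gene of the sensor RIG-I, had 3.25, 3.44 and 3.31 in KO cells, against 3.38, 3.46 and 3.48 in WT cells. Trim25, a ubiquitin ligase that helps RIG-I signal, had 4.91, 4.87 and 4.88 in KO cells, against 4.76, 4.96 and 4.80 in WT cells. These ranges overlap for both genes, as they do for Dhx58, the gene of the regulator LGP2 (-0.02 ± 0.17).

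Of the 10 genes whose products bind or break down viral RNA, Oas3 had the most negative difference. It encodes an enzyme that senses double-stranded RNA and then makes the signal for RNase L. Its levels were -0.89, -0.26 and -0.27 in KO cells, against -0.14, -0.21 and 0.08 in WT cells. The genotypes did not overlap, although KO replicates 2 and 3 lay close below WT replicate 2, and KO replicate 1 lay far below the rest. The probe lies at chr5:121203598-121203657 of mm9 on the minus strand. The difference was -0.38 ± 0.19, with a 95% interval from -0.83 to 0.07 (limma adjusted p = 0.455, exact two-sided permutation p = 0.1, the smallest that 3 against 3 arrays allow). Without KO replicate 1 it was -0.17. With normexp background correction and quantile normalization it was -0.33, and its unadjusted p of 0.0493 then lay just under 0.05 (adjusted p = 0.422).

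The other genes of that kind overlapped between genotypes. Oas1a, of the same enzyme family, had 4.59, 4.62 and 4.75 in KO cells, against 4.39, 4.77 and 4.96 in WT cells. Oasl2, a relative with ubiquitin-like domains, had 4.02, 4.18 and 4.31 in KO cells, against 4.08, 4.16 and 4.38 in WT cells. In both genes replicate 3 was the highest array of each genotype. Ifit3, a partner of the RNA cap-binding protein Ifit1, had -0.54, -0.47 and -0.16 in KO cells, against -1.35, -0.48 and -0.31 in WT cells. Its difference of 0.32 ± 0.27 rested on WT replicate 1 and was 0.01 without that array. The remaining members Ifit1, Ifit2, Isg20, Oas2, Oasl1 and Eif2ak2 differed by between -0.08 and 0.07.

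Isg15 encodes a ubiquitin-like protein that is attached to other proteins during the response. Its levels were 3.31, 3.19 and 3.66 in KO cells, against 3.06, 3.32 and 3.78 in WT cells, a difference of 0.00 ± 0.21. Array by array, replicate 3 was the highest in each genotype. Usp18, which removes Isg15 and restrains the type I receptor, differed by -0.03 ± 0.12. Parp14, an ADP-ribosyltransferase, had 3.13, 3.14 and 3.1 in KO cells, against 3.07, 3.16 and 3.28 in WT cells, a difference of -0.04 ± 0.09.

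Among the other antiviral genes, Ifi27, which encodes a mitochondrial protein, had 5.53, 5.61 and 5.91 in KO cells, against 5.42, 5.63 and 5.80 in WT cells. Rtp4 had 4.44, 4.36 and 4.53 in KO cells, against 4.28, 4.53 and 4.76 in WT cells. Mx1 and Mx2, the genes of dynamin-like GTPases that block viruses, differed by 0.27 ± 0.27 and 0.06 ± 0.19. Rsad2, the gene of viperin, differed by 0.18 ± 0.20. Ifi35, Ifi44 and Xaf1 differed by between -0.16 and 0.11.

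The 6 gamma-type GTPases, which act on the vacuoles of intracellular microbes, had differences between genotypes of -0.12 to 0.01, and all 6 intervals lay within 1.5-fold. Ifi47 had 4.43, 4.39 and 4.42 in KO cells, against 4.48, 4.26 and 4.47 in WT cells. Igtp had 3.92, 3.95 and 4.0 in KO cells, against 3.99, 3.79 and 4.21 in WT cells. Here the KO arrays lay inside the range of the WT arrays for both genes. Igtp was printed 10 times on each array, and the SD among its spots was 0.03 to 0.055, which describes the printing and scanning of 1 array and not the spread between samples. Cxcl10, a chemokine gene that draws in T cells, had 0.35, 1.11 and 0.71 in KO cells, against -0.08, 1.1 and 0.62 in WT cells. Tap1, a subunit of the peptide pump for MHC class I, had 0.72, 1.05 and 0.96 in KO cells, against 1.03, 0.91 and 1.1 in WT cells (10 spots, SD 0.039 to 0.07). Both genes overlapped between genotypes.

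The type I genes differed together between arrays of the same genotype. With each gene set against its own WT mean, the median type I gene stood at -0.09, -0.03 and 0.11 on KO replicates 1, 2 and 3, against -0.21, 0.02 and 0.19 on WT replicates 1, 2 and 3. Over all genes tested this median stayed between -0.02 and 0.02. WT replicate 1 was the lowest of the 6 arrays for 19 of the 28 type I genes, and for 4759 of the 19611 genes tested. WT replicate 3 was the highest for 17 (4128 of 19611 genes tested) and KO replicate 3 for 7 (3118 of 19611). WT replicate 3 lay above WT replicate 1 for 27 of 28 type I genes (10700 of 19611 genes tested), and KO replicate 3 above KO replicate 1 for 26 of 28 (9145 of 19611).

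**Figure D2:**
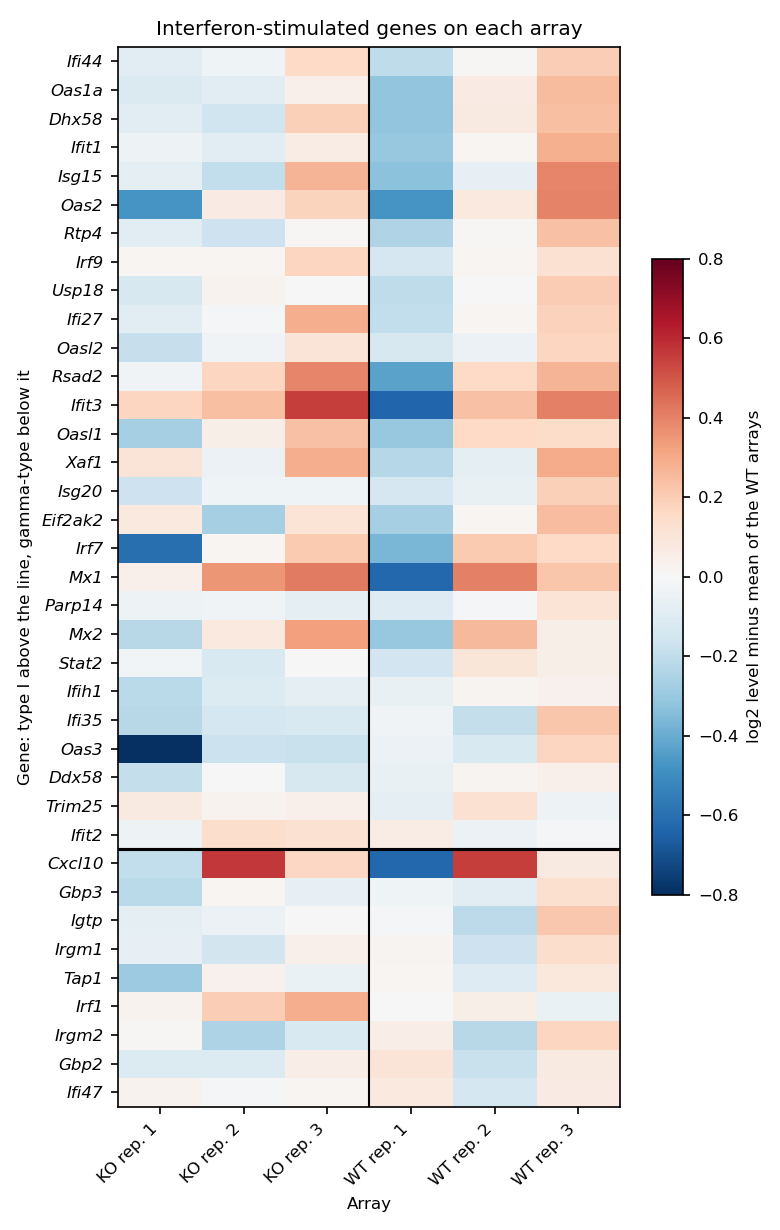
Level of each of the 37 genes on each array, as the log2 difference from its mean over the 3 WT arrays, with the KO arrays left of the WT arrays. Red is above and blue below that mean, type I genes stand above the horizontal line, and genes of each class are ordered by their correlation with the other type I genes. Most upper rows are blue on WT replicate 1 and red on WT replicate 3. On KO replicate 3 some of them are red and others lie close to the WT mean. Most gamma-type rows below the line do not share the order of the upper rows.

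This gave the type I genes a wide spread inside WT. The median SD over type I genes was 0.134 over KO arrays and 0.224 over WT arrays, against 0.128 and 0.134 over all genes tested in the same 2 groups. Among the widest, Ifit3 spanned 0.38 over KO arrays and 1.05 over WT arrays, and Mx1 spanned 0.37 over KO arrays and 1.03 over WT arrays. Oas2, at 3.38, 3.92 and 4.03 in KO cells and at 3.38, 3.93 and 4.25 in WT cells, had its low value on replicate 1 of each genotype.

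The gamma-type GTPases followed another order of arrays. Their median deviation was -0.07, -0.07 and 0.01 on KO replicates 1, 2 and 3, against 0.04, -0.17 and 0.14 on WT replicates 1, 2 and 3. WT replicate 2, not WT replicate 1, was the lowest array for 4 of the 6 GTPases (2362 of 19611 genes tested). WT replicate 3 was the highest for 4 of them (4128 of 19611). Cxcl10 had its lowest value on WT replicate 1, like most type I genes, and its highest values on replicate 2 of both genotypes. Irf1 was highest on KO replicate 3 and lowest on WT replicate 3.

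**Figure D3:**
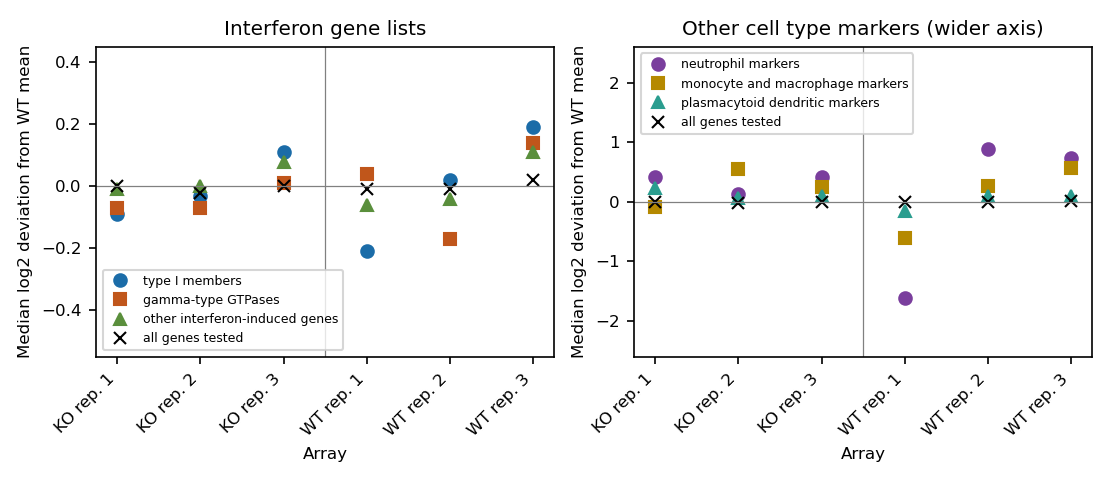
Median log2 deviation from the WT mean on each array, KO arrays left of WT arrays, for the interferon gene lists (left) and for markers of other cell types (right, wider axis). Crosses mark all genes tested. Type I genes reach -0.21 on WT replicate 1 and 0.19 on WT replicate 3, GTPases are lowest on WT replicate 2, and neutrophil markers are lowest on WT replicate 1 at -1.61.

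Over the 6 arrays, the mean pairwise Pearson r was 0.56 among type I genes, 0.68 among the 6 GTPases and 0.15 between these groups, beside 0.01 among all genes tested. These are descriptions over 6 arrays that all pairs share, with no test. Taken around the genotype means, the mean r was 0.62 among type I genes and 0.68 among GTPases. Without WT replicates 1 and 3, which lay farthest out for the median type I gene, it was 0.44 among type I genes over 4 arrays. Among GTPases it was 0.37 over the same 4 arrays, which still held WT replicate 2, where the median GTPase stood lowest. With the 40 other interferon-induced genes listed beside the 37, of which 39 were measured, type I genes had a mean r of 0.34 over 6 arrays and 0.18 over the 4. Between type I genes and GTPases it was 0.06 over the 4 arrays.

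Within the type I genes the shared pattern had a core and an edge. Against the median of the other type I genes, 22 of the 28 had an r over 0.5, with a median of 0.85. Ifi44 (0.99), Oas1a (0.96), Dhx58 (0.96), Ifit1 (0.95) and Isg15 (0.94) followed it most closely. Ifit2 (-0.08), Trim25 (0.23), Ddx58 (0.32), Oas3 (0.39), Ifi35 (0.45) and Ifih1 (0.46) followed it least. Ifi35 ran with the gamma-type GTPases instead (r = 0.88 with their median), and Trim25 ran opposite to them (r = -0.83). Ifit2 and Ifit3 lie in one gene cluster on chromosome 19 and still differed in pattern. Trim25, Ddx58, Ifih1 and Ifit2 spanned at most 0.21 over the arrays of either genotype.

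**Figure D4:**
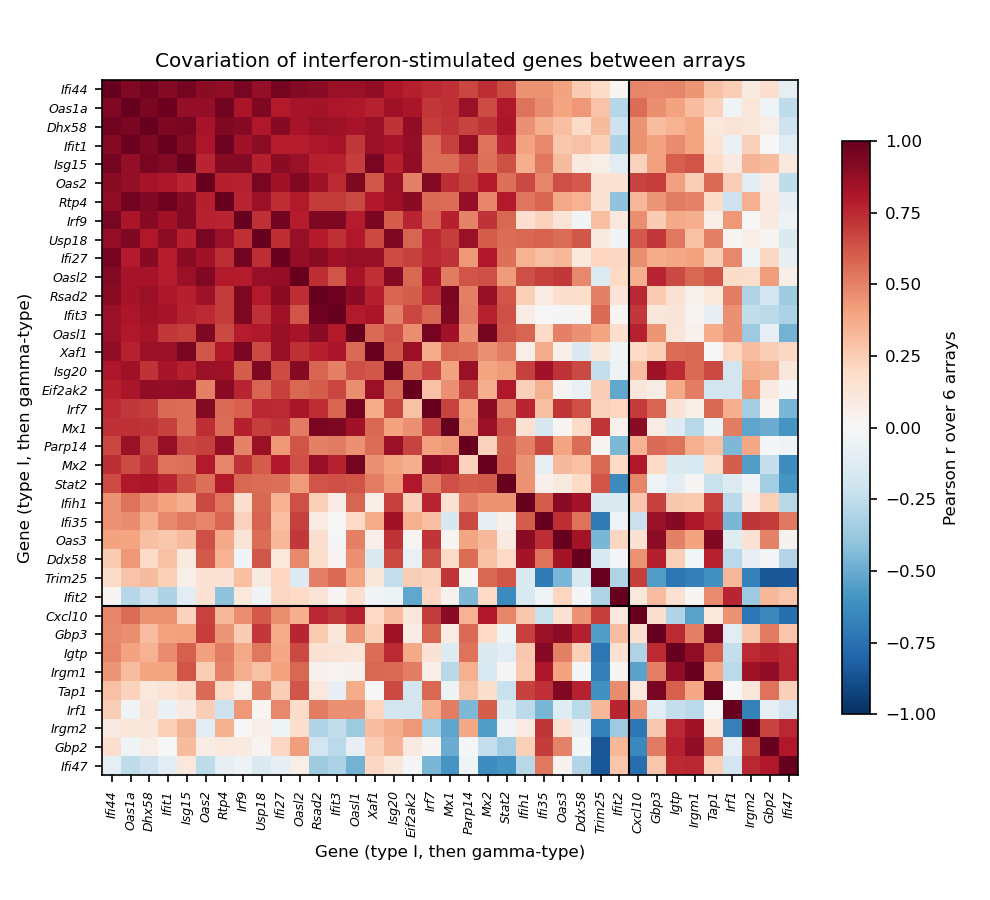
Pearson r between each pair of the 37 genes over the 6 arrays, from -1 (blue) to 1 (red), type I genes first and gamma-type genes last, with a line between the classes. The upper left block holds the type I genes (mean r 0.56 over all 28), the lower right block holds the 9 gamma-type genes (mean r 0.26, and 0.68 among the GTPases), and the blocks joining the classes are paler (mean r 0.19).

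Second probes gave a check on this pattern, since 10 of the genes had more than 1. For Isg15 the second probe had -0.83, -0.95 and -0.36 in KO cells, against -1.02, -0.83 and -0.12 in WT cells. For Xaf1 it had -2.28, -2.38 and -2.09 in KO cells, against -2.78, -2.26 and -1.79 in WT cells. Both were lowest on WT replicate 1 and highest on WT replicate 3, as their first probes were. The second Oas1a probe, with 2.25, 2.26 and 2.44 in KO cells and 2.35, 2.40 and 2.67 in WT cells, was highest on WT replicate 3 and lowest on KO replicate 1, where the first probe was lowest on WT replicate 1. For Isg20, which encodes an RNA exonuclease, both probes were lowest on KO replicate 1 and highest on WT replicate 3. The second Trim25 probe had 4.86, 4.84 and 4.87 in KO cells, against 4.73, 4.79 and 4.82 in WT cells, so that the genotypes did not overlap there (0.08 ± 0.08, limma adjusted p = 0.705), although they did at the first. The second Ddx58 probe (-0.26 ± 0.16) did not separate them. It was lowest on KO replicate 2 (-1.16), where the first was lowest on KO replicate 1 (3.25). The second Ifih1 probe was lowest on WT replicate 2 (-3.09), where the first was lowest on KO replicate 1 (1.82). The second Irgm1 probe had 1.24, 1.28 and 1.35 in KO cells, against 1.67, 1.20 and 1.45 in WT cells, and was lowest on WT replicate 2 like the first. Of the 47 probes, 45 were tested. The exceptions were second probes of Cxcl10 and Irf1, not well above background on all 3 arrays of either genotype. In limma's fit over 27809 probes, 0 of the 45 passed an adjusted p of 0.05. The fit by gene passed 0.0204% of all genes.

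Because both replicates 3 shared a slide, the slide was added to the fit as a term beside genotype. Slide 2 was higher than slide 1 for 27 of 28 type I genes, by a median of 0.26, and for 9 of 9 gamma-type genes, by a median of 0.12, beside 0.02 over all genes (10863 of 19611 higher). At an unadjusted p of 0.05, 6 of 28 type I genes were higher on slide 2 (1.83% of all genes) and 0 were lower (2.55% of all genes), whereas 0 gamma-type genes passed. Those 6 were Isg15 (0.50 ± 0.12 SE), Xaf1, Ifi27, Dhx58, Ifi44 and Oasl2, and after adjustment 0 of all 19611 genes passed (adjusted p = 0.939 for all 6). The count of 6 rested on single arrays. It was 3 without KO replicate 1 (3.98% of all genes), 6 without KO replicate 2 (1.22%) and 2 without KO replicate 3 (1.36%). It was 2 without WT replicate 1 (1.57% of all genes), 10 without WT replicate 2 (2.21%) and 0 without WT replicate 3 (1.18%). The type I median was steadier, between 0.19 and 0.31 when any 1 array was left out. The gamma-type median was between 0.06 (7 of 9 genes higher, without WT replicate 3) and 0.17 (9 of 9, without KO replicate 2). The slide pattern was looked for after the array pattern had been seen.

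Other interferon-induced genes, from a list of 40, moved the same way on the slides to a lesser size. Slide 2 was higher for 35 of the 39 measured, by a median of 0.14, and Bst2, Ly6e, Ly6a and Psmb10 passed an unadjusted p of 0.05 (1.83% of all genes), with 0 after adjustment. That count of 4 was 6 without KO replicate 1 (3.98% of all genes), 2 without KO replicate 2 (1.22%) and 5 without KO replicate 3 (1.36%). It was 3 without WT replicate 1 (1.57% of all genes), 3 without WT replicate 2 (2.21%) and 0 without WT replicate 3 (1.18%). The median ran between 0.12 and 0.16 with 1 array left out. Ly6a, the Sca-1 gene used in the sort, had 4.33, 4.50 and 4.75 in KO cells, against 4.22, 4.36 and 4.75 in WT cells. Its genotypes overlapped (0.08 ± 0.17), and replicate 3 was the highest array of each genotype.

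The marker values that move with these arrays are as follows. Neutrophil markers had median deviations of 0.41, 0.13 and 0.42 on KO replicates 1, 2 and 3, against -1.61, 0.89 and 0.74 on WT replicates 1, 2 and 3. Both WT replicate 1 extremes, low neutrophil markers and low type I genes, fell on the same array. The other arrays did not keep one order, since neutrophil markers were highest on WT replicate 2, where the median type I gene stood at 0.02. Monocyte and macrophage markers, 8 of 10 measured, had -0.09, 0.55 and 0.25 on the KO arrays, against -0.61, 0.26 and 0.56 on the WT arrays. Of 8 markers of plasmacytoid dendritic cells, known as strong producers of type I interferon, 6 were measured, with 0.23, 0.06 and 0.09 on the KO arrays and -0.15, 0.09 and 0.09 on the WT arrays. Klk1 and Cox6a2 of that list were not well above background on all 3 arrays of either genotype. B cell markers, 3 of 8 measured, had 0.03, 0.10 and 0.17 on the KO arrays, against -0.54, 0.17 and 0.37 on the WT arrays. By their medians, monocyte and B cell markers alike were lowest on WT replicate 1 and highest on WT replicate 3, as type I genes were. Gene by gene, 7 of the 8 monocyte and macrophage markers were lowest on WT replicate 1 (4759 of 19611 genes tested). Of these 8 markers, 1 was highest on WT replicate 3 (4128 of 19611). Of the 3 B cell markers, 2 were lowest on WT replicate 1, 2 were highest on KO replicate 3 (3118 of 19611) and 1 on WT replicate 3. Ms4a1, Pax5, Ebf1 and Igll1 of that list were not well above background on all 3 arrays of either genotype. T and NK cell markers, 6 of 10 measured, had 0.14, 0.15 and 0.17 on the KO arrays, against -0.09, 0.12 and -0.02 on the WT arrays. The part of other cells, of the slide and of RNA quality in the type I pattern was not tested.

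The array pattern was also described for members with and without an ISRE core. The 13 genes with an ISRE core had median deviations of -0.08, -0.09 and 0.04 on the KO arrays, against -0.15, -0.07 and 0.17 on the WT arrays. For the 16 with a promoter entry and no core, these were -0.13, -0.01 and 0.10 on the KO arrays, against -0.10, 0.01 and 0.14 on the WT arrays. WT replicate 3 lay above WT replicate 1 in 12 of 13 and 13 of 16 of them. Type I genes made up 7 of the 13 with a core and 13 of the 16 without one. The presence of a core and the class of the gene therefore cannot be told apart here.

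The genes upstream in the pathway were taken from lists of ligands, receptors, transcription factors, feedback inhibitors and inducers. Of 8 ligand genes, 7 were on the array under the listed name, and of those only Ifnl3 and Ifna1 were bright enough to test. Ifnb1 was well above background on 0 KO and 0 WT arrays. Ifng was well above background on 1 KO array and 0 WT arrays. Ifnl3, a type III interferon gene, had -2.36, -2.35 and -2.17 in KO cells, against -2.74, -2.55 and -2.83 in WT cells, with no overlap (0.41 ± 0.11, limma adjusted p = 0.363, exact permutation p = 0.1). Such a separation with KO above WT was seen in 9.53% of all genes, and the adjusted p did not pass.

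Among 8 receptor and kinase genes measured, 1 was higher in KO at an unadjusted p of 0.05 (7.06% of all genes) and 0 were lower (5.12% of all genes). That gene was Ifngr1, the ligand-binding chain for interferon gamma, with 4.16, 4.21 and 4.43 in KO cells, against 3.79, 4.01 and 3.97 in WT cells. All KO arrays lay above all WT arrays, and the difference of 0.35 ± 0.11 had an adjusted p of 0.375 in limma's fit and an exact permutation p of 0.1. Ifngr2 (-0.08 ± 0.09), Ifnar1 (0.10 ± 0.08) and Ifnar2 (0.01 ± 0.09) overlapped between genotypes. The 9 gamma-type targets named above had a median difference of -0.053, with 3 of the 9 above 0. Gbp4 and Gbp6, which are outside those 9, are described below. Whether any of these genes follow Ifngr1 was not tested.

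Of 8 other transcription factor genes, 0 were higher (7.06% of all genes) and 1 was lower (5.12% of all genes) at an unadjusted p of 0.05. Ciita, the switch for MHC class II genes, had -3.19, -3.30 and -3.43 in KO cells, against -3.07, -2.71 and -2.99 in WT cells (-0.39 ± 0.12, limma adjusted p = 0.376, exact permutation p = 0.1). Of 6 feedback inhibitors 0 were higher (7.06% of all genes) and 0 lower (5.12%) by the same p threshold. KO arrays lay wholly below WT arrays for 2 of the 6 (10% of all genes) and wholly above for 0 (9.53%). Among 11 genes that sense pathogens and induce interferon, 0 were higher (7.06% of all genes) and 1 was lower (5.12%) by that p threshold. That gene was Ticam1, the adaptor of Tlr3, with -0.16, -0.04 and 0.02 in KO cells and 0.37, 0.05 and 0.20 in WT cells (-0.27 ± 0.11, limma adjusted p = 0.405, exact permutation p = 0.1). Over the 11, differences were below 0 for 10 (10045 of 19611 genes tested). Their median was -0.115, beside -0.006 over all genes tested. KO arrays lay wholly below WT arrays for 4 of the 11 (10% of all genes) and wholly above for 1 (9.53%).

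Of the 39 other interferon-induced genes, KO arrays lay wholly above WT arrays for 3 (9.53% of all genes) and wholly below for 3 (10%). At an unadjusted p of 0.05 in limma's fit, 2 were higher in KO (7.06% of all genes) and 0 were lower (5.12%). Gbp4, which encodes a guanylate-binding protein, had 0.82, 0.85 and 1.07 in KO cells, against 0.45, 0.46 and 0.51 in WT cells (0.44 ± 0.10, limma adjusted p = 0.359, exact permutation p = 0.1). Gbp6, of the same family, had 1.81, 1.31 and 1.46 in KO cells, against 0.48, 1.14 and 1.09 in WT cells (0.62 ± 0.21, limma adjusted p = 0.378, exact permutation p = 0.1). KO arrays lay above WT arrays in both, and neither passed after adjustment over all genes. In the same family Gbp2, at 3.17, 3.17 and 3.33 in KO cells and 3.38, 3.1 and 3.35 in WT cells, overlapped, as did Gbp3 (-0.08 ± 0.10), Gbp5 (0.10 ± 0.13) and Gbp7 (-0.05 ± 0.10).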

How the data were processed

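The deposited scanner files give for each spot a linear intensity, the processed signal, corrected for background within the array per the file headers. The submitters' processing notes name Agilent Feature Extraction 10.7.3.1. In the deposited value table each array's intensities were divided by a constant of 304.4 to 368.2. Its values are linear, not centred on genes, with column medians of 0.0638 to 0.075, and were tried as an alternative.

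There were 62976 spots per array, 59305 of them not controls, in 55681 probes. Control spots and the 92 to 155 spots per array marked as outliers were left out, spots of a probe were averaged, and log2 values were centred on the array's 75th percentile over all non-control spots. Each gene name kept its probe with the highest mean over 6 arrays. Genes were tested if either genotype had all 3 arrays well above background, by limma 3.58.1 (R 4.3.3, lmFit, then eBayes, KO minus WT, no covariate) with Benjamini-Hochberg adjustment over all 19611 genes and a threshold of 0.05. No sample of any of the 37 genes was dropped or imputed. The fit was tested on simulated data. Single genes were also compared by an exact two-sided permutation test over arrays.

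The 37 genes and all gene lists were chosen with earlier results of these data known. All 37 may be named. Values per array are printed for those whose genotypes do not overlap or with an unadjusted p under 0.05, and for the brightest of each role. Of the pathway and other interferon-induced gene lists, set genes (the receptors, Ly6a) and up to 4 with an unadjusted p under 0.05 are named, and 2 genes are not reported here. Genes printed beyond this were chosen after their values were seen. Gene names are those of the array design, and 35 of 37 accessions matched the same symbol in RefSeq (Mx1 and Mx2 were not in that table). Probe positions are on mm9 as the scanner files give them, and their exons were not analysed here.

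Same-numbered KO and WT samples deviated together with correlations of -0.03, 0.15 and 0.07 for replicates 1, 2 and 3, so the numbers were not taken as pairs.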

Additional observations from a re-analysis of the deposited data

How the results depend on the processing

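The results were recomputed under 17 alternatives for scaling, filter, probe choice, slide, replicate block, moderation and left-out arrays. Over 629 values of single genes, 0 passed the adjusted threshold, 62 changed sign in 25 genes, each without an unadjusted p under 0.05 on either side, and 12 genes kept their sign. The signs followed single arrays of both genotypes. Without WT replicate 1, 4 genes were higher and 29 lower in KO, and without WT replicate 3, 27 were higher and 10 lower. Without KO replicate 1, 19 were higher and 17 lower, and without KO replicate 3, 10 were higher and 27 lower. One gene was lower at an unadjusted p under 0.05 with normexp and quantile normalization (Oas3, a count of 1), and 0 to 1 were higher with 1 array left out (Irf1, without KO replicate 1).

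Counts over all genes, 2 higher and 2 lower in KO, came to 5 and 5 with normexp and quantile normalization, 1 and 0 with quantile normalization, 0 and 0 without a filter, 1 and 0 for genes well above background on all 6 arrays, 5 and 4 for the mean of probes, 5 and 6 with trend and robust moderation, 2 and 1 with slide as a block, and 0 and 1 within slide 1. They were 0 to 5 higher and 0 to 2 lower with 1 array left out. With the replicate block they were 0 and 0, and 0 of the 37 genes passed. The cause of these shifts was not tested. Within slide 2, with 1 array per genotype and no test, the type I median difference was -0.064 and the gamma-type one -0.103, beside 0.02 and -0.033 within slide 1. With normexp and quantile normalization the type I one was 0.013.

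The slide count of 6 type I genes was 0 to 10 with 1 array left out, an alternative added after the data had been seen, as were 3 scalings of the array medians, which moved each by less than the spread between arrays. With 3 arrays per genotype, the 95% intervals of 7 of the 37 genes reach past 1.5-fold and those of 0 past 2-fold.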
